A study of Mus musculus with 16 samples.

Results

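Regions of chromatin that were open with 9aa-Ins and without a comparable peak in any other group numbered 460 of 90549, or 0.508% of all regions. ATAC-Seq, in which a transposase inserts adapters into accessible DNA, was conducted with 16 libraries of mouse hematopoietic progenitors in 4 groups of 4. From each library the 49000 peaks with the highest -log10 p on chromosomes 1 to 19 and X were kept, and peaks of all libraries that overlapped by 1 bp were merged into regions. A 9aa-Ins-only region held a peak in 4 of 4 9aa-Ins libraries and in 0 of the other 12. The regions were thus selected on the presence and absence of peaks in these lists, so both are a description and were not tested. The same rule gave 722 regions held only by the GATA2 libraries (0.797%), 946 only by the hi-77+/+ empty libraries (1.04%) and 77 only by the hi-77-/- empty libraries (0.085%).

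All cells were Lin- fetal liver cells immortalized with an estrogen-regulated HoxB8 and grown in β-estradiol, which keeps HoxB8 active. In hi-77-/- cells the Gata2 -77 enhancer was deleted from both alleles, and in hi-77+/+ cells it was intact. The hi-77-/- cells were infected with a GFP retrovirus that was empty (hi-77-/- empty), carried murine Gata2 cDNA (GATA2), or carried the same cDNA with an insertion of amino acids in the spacer between the zinc fingers (9aa-Ins). The hi-77+/+ cells received the empty vector only (hi-77+/+ empty), so no group had 9aa-Ins with an intact enhancer. The vector, and not the Gata2 locus, drove both proteins, and 50000 GFP+ cells were used after 3 days. The study calls the 4 libraries of a group biological replicates. The labels do not name separate lines or clones, so the spread between libraries may be partly technical.

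GATA2 is a zinc finger transcription factor that binds WGATAR motifs and maintains hematopoietic stem and progenitor cells. C/EBP proteins are basic leucine zipper factors that bind a different motif and promote granulocyte and monocyte differentiation, and ETS factors such as PU.1 and AP-1 factors act beside them at myeloid enhancers. Open regions away from promoters often mark enhancers, at which combinations of such factors bind.

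Of 12 progenitor marker genes, 10 had a promoter peak in 16 of 16 libraries, among them Ptprc, Kit, Cd34, Spi1 and Cebpa. Mpo had one in 15 libraries and Hoxa9 in 0. Of 7 fetal hepatocyte markers, 5 had no promoter peak in any library, including Alb and Afp, while Apoa1 and Apoa2 had one in 13 and 16 libraries. Peaks covered 89.9% to 99.6% of the Gata2 coding bases in the 9aa-Ins libraries, 46.5% to 73.7% with GATA2, 7.64% to 8.75% in hi-77-/- empty and 0% to 32.6% in hi-77+/+ empty libraries. The vectors of the 9aa-Ins and GATA2 groups carry Gata2 cDNA, so vector and locus cannot be told apart at these bases. No 9aa-Ins-only region overlapped Gata2 or had its nearest start site there. The deposited lists held 50195 to 112267 peaks per library and no read counts, so read depth is unknown. The -log10 q of the peak at rank 49000 lay between 6.39 and 9.34 in the 9aa-Ins libraries and between 2.87 and 7.15 in the others.

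The regions that led the set by rank, and the promoters of a pair of neutrophil genes chosen after their motifs were seen, show the sequences behind the findings. Each is the plus strand of GRCm38 in the window that reaches 100 bp to each side of the summit of the best-ranked peak, with bases annotated as UTR left out. Capitals mark the C/EBP motif TTGCNNAA on either strand, where N is any base. The windows at Ank3 and Ifngr1 have no capitals because they hold no such match.
Serpine2 upstream region, chr1:80025890-80026090: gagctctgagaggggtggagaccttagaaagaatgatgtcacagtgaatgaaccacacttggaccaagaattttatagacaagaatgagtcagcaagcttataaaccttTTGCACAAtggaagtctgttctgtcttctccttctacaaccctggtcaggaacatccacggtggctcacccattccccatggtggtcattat
Ank3 intron, chr10:69884360-69884560: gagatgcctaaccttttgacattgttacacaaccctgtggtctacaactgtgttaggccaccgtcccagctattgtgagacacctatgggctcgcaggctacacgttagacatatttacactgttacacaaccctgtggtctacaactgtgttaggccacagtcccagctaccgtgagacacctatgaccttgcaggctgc
Ifngr1 upstream region, chr10:19526384-19526584: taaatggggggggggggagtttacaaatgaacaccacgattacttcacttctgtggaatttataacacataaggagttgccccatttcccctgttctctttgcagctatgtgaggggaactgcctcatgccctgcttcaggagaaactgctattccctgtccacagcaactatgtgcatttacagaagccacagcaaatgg
1700010I14Rik downstream region, chr17:9145935-9146135: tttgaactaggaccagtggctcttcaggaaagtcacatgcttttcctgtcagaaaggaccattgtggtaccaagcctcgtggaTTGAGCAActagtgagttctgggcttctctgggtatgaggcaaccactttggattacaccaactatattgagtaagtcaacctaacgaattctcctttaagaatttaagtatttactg
Lpp upstream region, chr16:24199890-24200090: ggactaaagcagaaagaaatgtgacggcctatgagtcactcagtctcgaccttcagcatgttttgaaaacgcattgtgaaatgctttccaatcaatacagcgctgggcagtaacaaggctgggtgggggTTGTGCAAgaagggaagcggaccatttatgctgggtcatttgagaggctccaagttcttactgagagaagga
Foxp1 intron, chr6:99343940-99344140: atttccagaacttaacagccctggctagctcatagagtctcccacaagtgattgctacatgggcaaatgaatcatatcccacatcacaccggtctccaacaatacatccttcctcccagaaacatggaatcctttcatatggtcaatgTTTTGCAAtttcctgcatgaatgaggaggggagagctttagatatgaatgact
Lcn2 promoter, chr2:32387798-32387978: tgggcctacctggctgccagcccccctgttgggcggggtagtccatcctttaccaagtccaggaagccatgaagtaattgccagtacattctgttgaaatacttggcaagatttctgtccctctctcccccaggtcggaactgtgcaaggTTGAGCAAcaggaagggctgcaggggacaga
Cxcr2 promoter, chr1:74156517-74156717: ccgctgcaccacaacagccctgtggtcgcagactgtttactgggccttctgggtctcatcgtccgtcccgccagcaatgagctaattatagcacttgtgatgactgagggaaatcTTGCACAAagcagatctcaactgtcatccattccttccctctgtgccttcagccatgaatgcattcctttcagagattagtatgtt

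The Serpine2, 1700010I14Rik, Lpp and Foxp1 windows each held a C/EBP motif. In these 4 windows the motif nearest the summit lay 12.5, 13.5, 32.5 and 51.5 bp from it. The Ank3 window held no C/EBP motif but an exact direct repeat of 39 bp, whose copies started 99 bp apart. The Lcn2 and Cxcr2 windows held the C/EBP octamers TTGAGCAA and TTGCACAA, which are also the most frequent ones in the set as a whole.

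None of the 9aa-Ins-only regions ranked among the strongest peaks. The median rank of a region over the 4 9aa-Ins libraries ran from 15504.5 to 46596, with a median of 35428, where rank 1 is the most significant peak of a library. In 9aa-Ins replicates 1 to 4, 94.4%, 90%, 86.6% and 88.5% of the regions ranked in the poorer 50% of the 49000 peaks. Their median fold enrichment over the background of the library was 9.46, 9.86, 9.25 and 8.54, and their median -log10 q was 13.4, 14.3, 12.7 and 11.4. In length the regions ranged from 146 to 1267 bp, with a median of 339.5 bp, against 271 bp for all regions. The median was 304 bp for GATA2-only, 261 bp for hi-77-/- empty-only and 219 bp for hi-77+/+ empty-only regions.

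The best-ranked region (chr1:80025839-80026665) lay between genes, 165 kb upstream of the nearest start site, that of Serpine2, which encodes a secreted inhibitor of thrombin and urokinase. It ranked 15804, 17999, 15107 and 15205 in 9aa-Ins replicates 1 to 4, with fold enrichments of 20.2, 17.9, 19.2 and 18.3. Among the other 12 libraries it had a single weak peak, at rank 75448 in GATA2 replicate 2.

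An intron of Ank3 (chr10:69884046-69884629), which encodes the membrane-cytoskeleton adaptor ankyrin-G, held the next region, at ranks 20883, 16958, 14189 and 18487. Weak peaks lay there at rank 57457 in hi-77-/- empty replicate 4 and at rank 71635 in GATA2 replicate 2. The region 65.2 kb upstream of Ifngr1 (chr10:19526313-19526711), the gene for the ligand-binding chain of the interferon-γ receptor, ranked 18340, 20869, 18477 and 17690. It had weak peaks in 3 hi-77-/- empty libraries and 2 GATA2 libraries, at ranks from 58444 to 71504, and none in the hi-77+/+ empty libraries.

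An intergenic region 157 kb downstream of the start of 1700010I14Rik (chr17:9145696-9146176) ranked 23307, 19430, 19617 and 17949. A region 193 kb upstream of Lpp (chr16:24199789-24200116), which encodes a LIM domain protein of focal adhesions, ranked 22163, 23173, 17109 and 16457. It was the middle one of 3 9aa-Ins-only regions that lay within 100 kb, a density found at no other locus, from 24193368 to 24202976 on chromosome 16. The flanking regions there had median ranks of 26209 and 36745. An intronic region of Foxp1 (chr6:99343725-99344196), a forkhead transcription factor gene, ranked 22707, 19829, 15304 and 19982, and weak peaks lay there in 1 hi-77-/- empty and 1 GATA2 library.

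The other regions of the leading 20 lay at genes of varied function. Introns held regions in Smarcc1, which encodes a SWI/SNF subunit, in Usp7, which encodes a deubiquitinase acting on the p53 pathway, in Col4a2, which encodes a type IV collagen chain, and in Depdc7. Coding exons held regions in Zfyve26, in Piezo1, which encodes a mechanosensitive ion channel, and in Zfp408. Promoters within 3 kb of a start site held regions at Stfa1, Il23a and Samd4b, which encode a cysteine protease inhibitor of myeloid cells, a subunit of interleukin-23 and an RNA-binding protein. The nearest start sites of the remaining 4 were those of Sdr16c6, Gorab, Mdm1 and Sept5. The median ranks of these 14 regions ran from 20069 to 22687, and 11 of the leading 20 windows held a C/EBP motif.

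**Figure D1:**
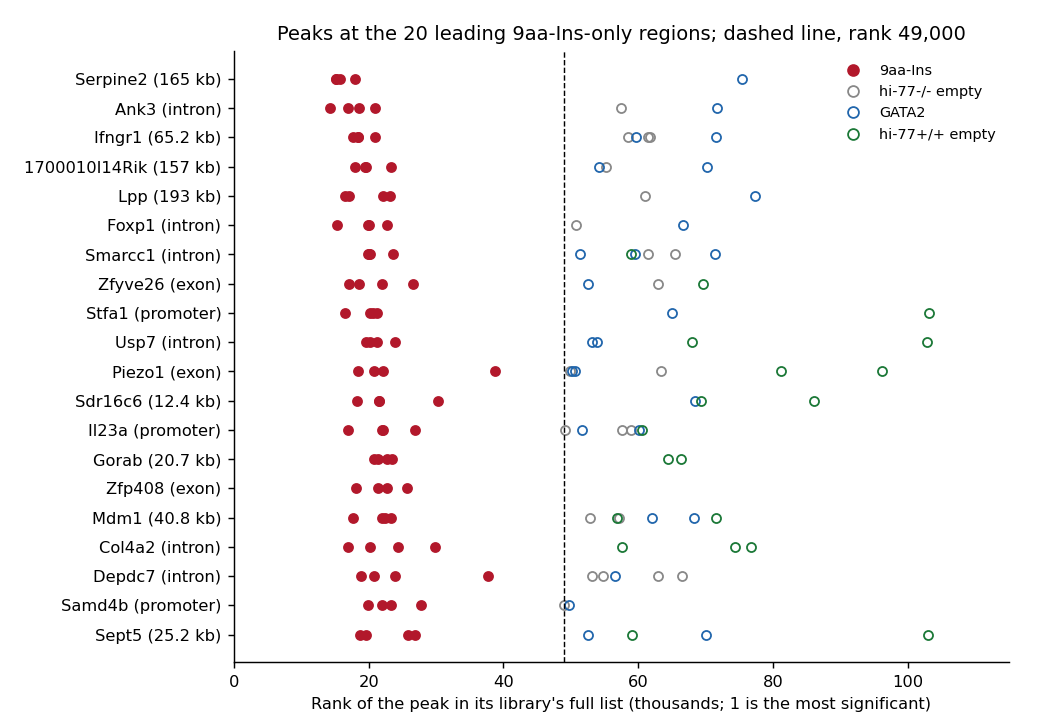
Rank of the peak (x axis, in units of 1000), in the full list of each library for the 20 9aa-Ins-only regions of lowest median rank, 1 row per region named by its gene or its distance to the nearest start site. Filled points are 9aa-Ins libraries, all left of the dashed line at rank 49000, and open points are weak peaks of the other groups, which lie right of it by the rule. A library without a point had no peak in the region.

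At the edge of the rule, the poorest ranks among members were 49000 for a region 9.5 kb upstream of Fam216b, 48989 for one 335 kb upstream of Spred2 and 48906 for one in a UTR of Lyz1, which encodes lysozyme. A total of 415 regions missed the set because 1 of the other 12 libraries held a peak. That library was hi-77-/- empty for 195 of them, GATA2 for 171 and hi-77+/+ empty for 49. The best of these by median rank lay 26.3 kb from the start of BC117090, with 9aa-Ins ranks from 12653 to 20239 and a peak at rank 34142 in GATA2 replicate 2. The next lay in introns of Ankrd33b and B4galnt2, with the single other peak at rank 34209 in hi-77-/- empty replicate 1 and at rank 41367 in hi-77+/+ empty replicate 4. A further 506 regions had a peak in 3 of 4 9aa-Ins libraries and in 0 of the others.

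To describe peaks in libraries left out of the choice, 1 9aa-Ins library and 1 library of another group were held out in turn. The rule was applied to the other 14, and both held-out libraries were scored in the regions so chosen. These sets held 545 to 784 regions. With hi-77-/- empty as the partner, 67.6%, 81.9%, 85.5% and 82.1% of the regions had a peak in 9aa-Ins replicates 1 to 4, each the mean over 4 partners. The held-out hi-77-/- empty replicates 1 to 4 had a peak in 8%, 13.1%, 7.4% and 9.46%. The groups did not overlap, and the lowest 9aa-Ins value was that of replicate 1 with each partner group.

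The mean was 79.3% ± 7.98 in 9aa-Ins and 9.5% ± 2.57 in hi-77-/- empty libraries (SD, n = 4 each), a difference of 69.8 percentage points (2-sided exact permutation test, p = 0.0286, adjusted p = 0.0286). Against GATA2 the means were 79.6% ± 7.96 and 7.89% ± 3.16, a difference of 71.7 points (n = 4 each, exact permutation p = 0.0286, adjusted p = 0.0286). Against hi-77+/+ empty they were 79.2% ± 8.01 and 2.59% ± 0.829, a difference of 76.6 points (n = 4 each, exact permutation p = 0.0286, adjusted p = 0.0286). This p is the smallest that 4 against 4 libraries allow, and the adjustment was over the 3 tests. The sets chosen in different rounds share most libraries, and each scored library helped to choose regions in other rounds. Finished scores were permuted without choosing the regions again. The p is therefore not exact for the whole procedure and gives no independent support for the rule.

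**Figure D2:**
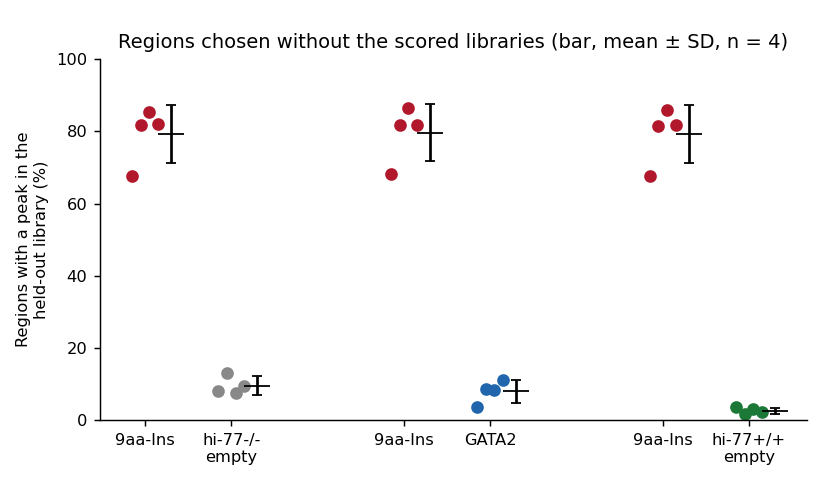
Percent of regions with a peak in the held-out library (y axis) for 9aa-Ins and the partner group, 1 point per library, with the mean and SD of 4 libraries beside the points. The 9aa-Ins libraries lie between 67.5% and 86.6% and the partner libraries between 1.57% and 13.1%.

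The full deposited lists, which continue past rank 49000, held weak peaks at most of the regions. Of the 460 regions, 384 (83.5%) overlapped a weak peak in at least 1 of the other 12 libraries and 76 (16.5%) in none. Few regions had weak peaks in many libraries: the most frequent number was 2 of 12, found for 104 regions, and 23 regions (5%) had 6 or more. The best weak peak of a region ranked 49040 to 110780, with a median of 56615, and for 246 regions (53.5%) it ranked no lower than 60000. A weak peak in at least 1 library of another group lay at 76 (98.7%) of the hi-77-/- empty-only regions, at 551 (76.3%) of the GATA2-only regions and at 780 (82.5%) of the hi-77+/+ empty-only regions. These shares are not like for like, because each set was scored in a different 12 libraries. The sets of the other groups were scored in the 9aa-Ins lists, which held 21219 to 58594 peaks past rank 49000. Of the 77 hi-77-/- empty-only regions, 76 (98.7%) had a weak peak in at least 1 9aa-Ins list.

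The share of 9aa-Ins-only regions with a weak peak was 21.7%, 32.2%, 25% and 18.9% in hi-77-/- empty replicates 1 to 4. In GATA2 replicates 1 to 4 it was 0.217%, 30.7%, 3.26% and 29.6%, and in hi-77+/+ empty replicates 1 to 4 it was 21.1%, 28.9%, 10.4% and 8.48%. The groups overlapped. The lowest shares, those of GATA2 replicates 1 and 3, came from the lists that ended soonest, 852 and 4743 peaks past rank 49000. Among the other 10 lists, which continued for 14924 to 62743 peaks, a longer list did not have the higher share throughout. The 34018 further peaks of hi-77+/+ empty replicate 4 gave 8.48%, and the 14924 of hi-77-/- empty replicate 4 gave 18.9%.

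Mean shares were 24.5% ± 5.71 in hi-77-/- empty, 15.9% ± 16.4 in GATA2 and 17.2% ± 9.56 in hi-77+/+ empty libraries (SD, n = 4 each). The hi-77-/- empty libraries did not differ detectably from GATA2 (difference 8.53 points, exact permutation p = 0.371, adjusted p = 0.557) or from hi-77+/+ empty (7.23 points, exact permutation p = 0.229, adjusted p = 0.557). The hi-77+/+ empty and GATA2 libraries differed by 1.3 points (exact permutation p = 0.943, adjusted p = 0.943), and without GATA2 replicates 1 and 3 this difference turned to -12.9 points and that of hi-77-/- empty from GATA2 to -5.65 points. Per 1000 weak peaks of the list, 4.55 to 7.26 regions were hit in hi-77-/- empty libraries, 1.17 to 5.76 in GATA2 and 1.15 to 2.5 in hi-77+/+ empty libraries. The hi-77-/- empty and hi-77+/+ empty values did not overlap on this scale (adjusted p = 0.0857, exact permutation test).

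Counted by region, 257 (55.9%) had a weak peak in at least 1 hi-77-/- empty library, 224 (48.7%) in at least 1 GATA2 library and 205 (44.6%) in at least 1 hi-77+/+ empty library. In 9 regions all 4 hi-77-/- empty lists held a weak peak, and in 6 regions all 4 hi-77+/+ empty lists did. Of the 76 regions with no weak peak, those of lowest median rank lay in a coding exon of Zfp408 (chr2:91645860-91646208), in an intron of Zfp462 (chr4:55064177-55064547) and 52 kb upstream of Pthlh, the gene for parathyroid hormone-like hormone (chr6:147316187-147316516). Their median ranks were 22105.5, 25178.5 and 26310.5, and only the Zfp462 window held a C/EBP motif.

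**Figure D3:**
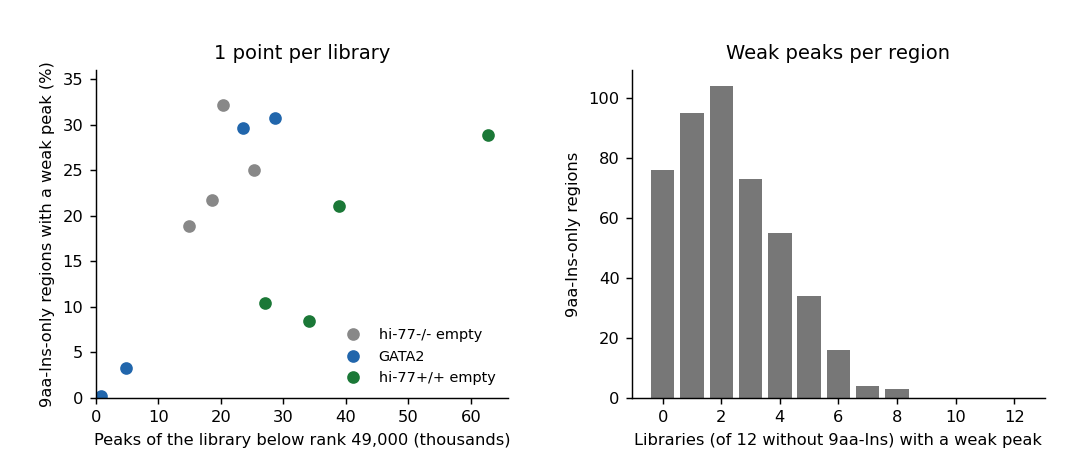
Left, percent of the 460 regions with a weak peak in each library of the other groups (y axis) against the number of its peaks below rank 49000 in units of 1000 (x axis), 1 point per library. Right, number of regions (bars) by the number of the 12 libraries with a weak peak, of which 2 was the most frequent. GATA2 replicates 1 and 3 sit at the lower left with 0.217% and 3.26%.

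The regions lay away from promoters more often than regions in general. Of the 460, 405 (88%) were over 3 kb from the start of a protein-coding gene, compared with 72.7% of all regions, 88.3% of hi-77-/- empty-only, 86.6% of GATA2-only and 74.7% of hi-77+/+ empty-only regions. Intergenic regions made up 48.7% against 36.4% of all regions, introns 33.3% against 31.7%, and promoters 12% against 27.3%. Coding exons held 24 regions (5.22% against 3.19%) and UTRs 4. The nearest start site was over 100 kb away for 74 regions (16.1% against 10%). This share was 15.6% in hi-77-/- empty-only, 16.2% in GATA2-only and 7.51% in hi-77+/+ empty-only regions. Of 460 regions, 94 (20.4%) lay within 1 kb of a region with a peak in the other groups. The share was 24.7% for hi-77-/- empty-only, 17.7% for GATA2-only and 18.4% for hi-77+/+ empty-only regions. The median distance to a region with a peak in 16 of 16 libraries was 22 kb, against 19.3, 17.8 and 13.6 kb for these sets. In composition, the windows had 47.1% GC and 11.1% bases masked as repeats, against 51.9% and 16.4% over all regions. GATA2-only regions had similar values, 47.7% and 11.7%. The values were 51.3% and 13.2% in hi-77-/- empty-only and 51.9% and 20.2% in hi-77+/+ empty-only regions.

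The C/EBP motif was more frequent in the 9aa-Ins-only regions than in the other sets counted. It was found in 199 of the 460 windows (43.3%), compared with 11.2% of all regions, 12.4% of all regions over 3 kb from a start site, 13.3% of GATA2-only, 9.09% of hi-77-/- empty-only and 6.34% of hi-77+/+ empty-only regions. The share was 45.5% in the 55 promoter regions, 43.8% in introns and 42.9% between genes, against 8.2%, 11.9% and 13% of all regions of these classes. The share varied little with base composition. In windows with GC below 45%, from 45% to 50%, from 50% to 55% and from 55% up, 40.6%, 44.9%, 44.3% and 42.9% of the 9aa-Ins-only regions had the motif, and 16.2%, 14.2%, 10.7% and 5.76% of all regions. At least 2 matches lay in 7.17% of the windows, against 0.951%.

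The octamers that the motif covers contributed unequally. TTGAGCAA or its complement was found in 42 regions (9.13% against 1.28% of all regions) and TTGCACAA in 41 (8.91% against 1.74%), followed by TTGCAAAA in 24. Of the 199 regions with the motif, 142 (71.4%) had it within 50 bp of the summit, at a median of 34.5 bp, compared with 58.7% and 41.5 bp over all regions with the motif.

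WGATAR, the motif of GATA2, was less frequent than in regions in general. The letters GATA with A or T before them and A or G after them, on either strand, were found in 78 windows (17%), against 26.5% of all regions. The share was 16.9% in hi-77-/- empty-only, 21.1% in hi-77+/+ empty-only and 83.1% in GATA2-only regions, so a low share was not limited to 9aa-Ins. With whole regions searched, an alternative whose comparison was added after seeing the data, it was 31.3% in the 9aa-Ins-only regions, 38.7% in all regions, 32.5% in hi-77-/- empty-only, 26.5% in hi-77+/+ empty-only and 89.9% in GATA2-only regions. The WGATAR share was 14.6% in the 199 regions with a C/EBP motif and 18.8% in the other 261.

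The ETS motif (GGAA with A or C before it and A or G after it) was found in 69.8% of the windows against 58.3% of all regions, AP-1 (TGANTCA) in 17.4% against 11.1%, and MYB (AACNG with C or T before it) in 51.3% against 41.3%. RUNX (TGTGGT or TGCGGT) was found in 31.1% against 27.6%. GATA2-only regions had similar values for AP-1 (18.1%) and MYB (51.4%). The motif of CTCF, which organizes chromatin loops, was found in 1 window (0.217%), against 12.1% of all regions, 1.3% of hi-77-/- empty-only, 1.8% of GATA2-only and 19.6% of hi-77+/+ empty-only regions. KLF/SP (GGGCGG or CCACACCC) was found in 4.35% of the windows, against 16.8% of all regions, 5.19% of hi-77-/- empty-only, 6.79% of GATA2-only and 12.6% of hi-77+/+ empty-only regions. Over 3 kb from a start site the KLF/SP contrast was smaller, 3.95% against 9.29% of all such regions. ETS motifs were found in 62.3% of regions with a C/EBP motif and 75.5% of those without. In all, 20 motifs were searched, and a match describes the letters of the window, not binding by a factor.

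**Figure D4:**
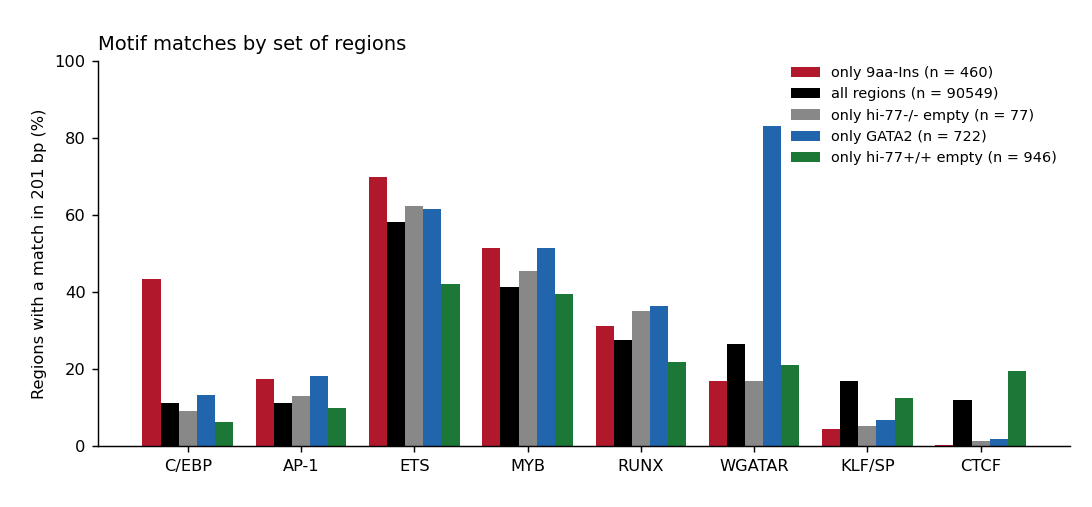
Percent of regions whose window around the summit holds each motif (y axis), for the 9aa-Ins-only regions, all regions and the regions held only by each other group (bars, with the number of regions in the key). C/EBP stands at 43.3% in the 9aa-Ins-only regions and WGATAR at 83.1% in the GATA2-only regions.

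The C/EBP share was lower where more of the other libraries shared a peak, though the decline was not steady. The regions are sorted here by the same peak counts that define the set, so this is a description and was not tested. Among regions with a peak in 4 of 4 9aa-Ins libraries the C/EBP share was 43.3% where 0 of the other 12 had a peak, 31.8% for 1, 30.7% for 2 and 24.3% for 3. It was 19.5% for 4, 20.4% for 5, 14.7% for 8, 15.2% for 10 and 9.45% for the 21169 regions with a peak in 12 of 12. The CTCF share changed as well, from 0.217% for 0 to 14.1% for 11, and was lower again, 8.94%, for 12. Where 0 of the other 12 had a peak, the C/EBP share was 37.2% for regions found in 3 of 4 9aa-Ins libraries, 27.5% for 2 and 21.5% for 1. In 4 equal groups of the set ordered by median rank, the C/EBP share was 52.2% in the best-ranked group and 43.5%, 36.5% and 40.9% in the following ones. Regions without any weak peak had the motif in 38 of 76 cases (50%) and those with a weak peak in 161 of 384 (41.9%).

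Outside the 460 regions the 9aa-Ins lists held more C/EBP motifs as well. Of all peaks listed in a library with these regions left out, 12.7% ± 0.386 had the motif in 9aa-Ins, 10.1% ± 0.183 in hi-77-/- empty, 10.5% ± 0.582 in GATA2 and 9.1% ± 0.215 in hi-77+/+ empty libraries (SD, n = 4 each). The 9aa-Ins libraries ranged from 12.2% to 13.2% and the other 12 from 8.86% to 10.9%, without overlap. Over 3 kb from a start site the ranges were 14.7% to 16.1% and 10.7% to 13.3%. WGATAR was found in 20.5% to 21.1% of the 9aa-Ins peaks, a range that overlapped those of hi-77-/- empty (20.2% to 20.6%) and hi-77+/+ empty (20.6% to 21.4%), and in 26.3% to 27.3% of the GATA2 peaks. These peaks come from the lists that chose the regions, and the comparison was made after the motif shares of the regions were seen, so it was not tested.

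**Figure D5:**
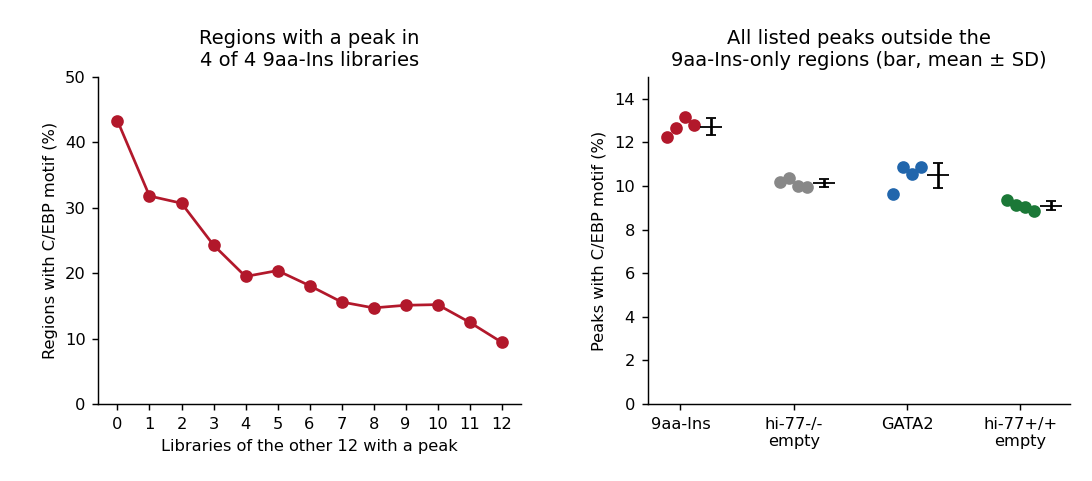
Left, percent of regions with a C/EBP motif (y axis) among regions with a peak in 4 of 4 9aa-Ins libraries, by the number of the other 12 libraries with a peak (x axis). It was 43.3% at 0 and 9.45% at 12, without a steady decline between them. Right, percent of the listed peaks with a C/EBP motif outside the 460 regions, 1 point per library, with the mean and SD of 4 libraries. The 9aa-Ins libraries lie above the other 12.

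By genes, 403 of the 460 regions overlapped a protein-coding gene or had their nearest start site within 100 kb, for 440 genes. Of these regions 22 fell to one of 459 genes in 11 lists of hematopoietic and immune genes. The share of regions at each list is set beside the 0.508% of all regions, with no test.

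Neutrophil and granule genes had 5 of 142 regions (3.52%), among them regions at Stfa1, Ly6c2, Lcn2 and Cxcr2, and 3 of the 5 held a C/EBP motif. The Stfa1 promoter region (chr16:36276856-36277187) ranked 21172, 20241, 20574 and 16462 in the 9aa-Ins libraries, with weak peaks in 2 of the other 12. Stefin and Ly6 genes have near-identical neighbors, so the assignment of uniquely aligned reads among copies is uncertain there. A region at the start of Ly6c2 (chr15:75111833-75112220), which encodes a surface antigen of monocytes and granulocytes, ranked 28746, 25534, 23919 and 29545.

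The Lcn2 start site (chr2:32387706-32388279), whose gene encodes a siderophore-binding granule protein, lay in a region with ranks of 37638, 36806, 22988 and 28212 and weak peaks in 2 hi-77-/- empty and 2 GATA2 libraries. The region 2.38 kb from the start of Cxcr2 (chr1:74156370-74156714), which encodes a chemokine receptor that recruits neutrophils, ranked 47128, 36620, 41859 and 39905 and had weak peaks in 5 libraries, 3 of them hi-77-/- empty. Of the 5 regions, that at the Stfa1 promoter had the lowest median rank and that at Cxcr2 the highest.

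B lymphoid genes had 3 of 157 regions (1.91%), none with a C/EBP motif. They lay in introns of Ebf1 and Foxo1, which encode transcription factors of early B cells, at median ranks of 37316 and 42649.5, and within Cd79a, a B cell receptor subunit gene, 0.718 kb from the start of its neighbor Arhgef1. The Ebf1 region had weak peaks in 5 libraries, of which 2 were hi-77-/- empty, 1 GATA2 and 2 hi-77+/+ empty.

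Shares closer to the 0.508% of all regions were found for the other lists. Hematopoietic transcription factors had 4 of 1006 regions (0.398%), in introns of Zeb2, with 2 regions, Etv6 and Elf4, and 3 of the 4 held a C/EBP motif. The better-ranked Zeb2 region (chr2:45085552-45085903) ranked 40435, 36825, 38625 and 36973 and had no weak peak in any library. Cytokine receptor and signaling genes had 3 of 498 (0.602%), at Ifngr1, at Tnfrsf1b, which encodes a TNF receptor, and 67.4 kb from Csf2, which encodes GM-CSF. The Csf2 region ranked 42134, 48278, 44383 and 35626, and its weak peaks came from each of the 4 hi-77-/- empty lists and from no list of GATA2 or hi-77+/+ empty.

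Innate immune and inflammasome genes had 2 of 270 regions (0.741%), 17.3 kb upstream of Tlr2 and 9.82 kb upstream of Tlr5, genes for receptors of bacterial lipoproteins and flagellin. Adhesion and guidance genes had 2 of 494 (0.405%), at Nrp1 and Selplg. Single regions fell to mast cell and basophil genes (1 of 181, at the Fcer1g promoter), to monocyte and dendritic cell genes (1 of 226, in an intron of Ctsb) and to chemokine genes (1 of 276, 11.5 kb upstream of Ccl2). None of the 156 regions at T and NK cell genes and none of the 171 at erythroid and megakaryocyte genes was 9aa-Ins-only.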

How the data were processed

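ATAC-Seq peaks of 16 libraries were analysed. Per the labels and the study's methods, the authors trimmed reads with Trim Galore 0.4.1, aligned them to mm10 with Bowtie2 2.2.5, removed duplicates with Picard 2.26.0, kept unique alignments, shifted reads for the transposase offset and called peaks per library with MACS2 without a shifting model. A fixed background (nolambda) is stated for the hi-77-/- groups. The deposited lists give a display score, fold enrichment (a ratio), -log10 p, -log10 q and the summit offset in bp. They hold no read counts, so no count test was possible and no precision from depth can be given.

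Peaks were ranked by -log10 p, ties by fold enrichment and position, and the 49000 best of each library on chromosomes 1 to 19 and X were merged at an overlap of 1 bp. A weak peak is one past that rank in the full list. GENCODE M21 protein-coding genes and the GRCm38 sequence were used, with promoters within 3 kb of a start site, genes within 100 kb, and motifs on both strands of the window 100 bp to each side of the summit. Held-out shares were compared over libraries with 2-sided exact permutation tests of the finished scores, without choosing regions again. They were adjusted by Benjamini-Hochberg over 3 tests, and the script was tested on simulated data. The 20 regions of lowest median rank, regions at listed genes, those nearest the threshold, the 3 best without a weak peak and loci with 3 regions were named. The result at 1 listed gene is not reported here. Members and lists were chosen with earlier results of these data known. Alternatives covered list length, overlap, peak width, ranking, promoter distance, motif window and leaving out libraries. Those on the C/EBP motif, and that without GATA2 replicates 1 and 3, were chosen after seeing the data. Python 3.11.15, NumPy 2.4.6, pandas 2.3.3 and matplotlib 3.10.9 were used.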

Additional observations from a re-analysis of the deposited data

How the results depend on the processing

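The held-out differences kept their direction under every alternative run. Each unpaired alternative gave adjusted p = 0.0286 (exact permutation test), the smallest that the libraries allow. The regions were chosen each time by a rule of the same kind, so this p gives no independent support. With the replicate number as a block (sign-flip permutation) the held-out differences were 69.8, 71.7 and 76.6 percentage points at adjusted p = 0.125, the smallest that 4 pairs allow. Whether the numbers pair the libraries was not settled. Over 12 pairs the correlations were small, from -0.0167 to 0.0129, and 5 of 12 were best with their own number. Between 9aa-Ins and GATA2, 4 of 4 were, at 0.00815 to 0.0129, so neither the paired nor the unpaired p is preferred there. Leaving out each library gave 57.6 to 70.3 points against hi-77-/- empty, 60.7 to 71.8 against GATA2 and 64 to 77.4 against hi-77+/+ empty.

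The number of regions depended on the lists. It was 260 with lists of 50% of the length, 1286 with all deposited peaks, 1178 where peaks had to cover 50% of the region, 76 where absence was judged in the full lists, and 467 to 688 without each library. The C/EBP share for these 4 settings was 48.8%, 35.5%, 37.9% and 50%, and it was 40.5% to 43.7% without each library. For these settings no share of all regions is given here. Over whole regions the C/EBP share was 51.5%, against 17.8% of all regions. It was 19.9% in GATA2-only, 11.7% in hi-77-/- empty-only and 8.25% in hi-77+/+ empty-only regions. The WGATAR share was 13.5% with lists of 50% of the length, 31.3% over whole regions and 15.3% to 17.6% without each library. The share away from promoters was 90.8% with absence in the full lists, 95.4% with promoters of 1 kb and 86.7% to 88.7% without each library.

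The weak-peak difference between hi-77+/+ empty and GATA2 reversed to -7.21 points with lists of 50% of the length, -0.435 with lists shortened to the shortest, and -1.87 per 1000 weak peaks. It was -4.35, -3.21 and -1.93 points without GATA2 replicate 1, GATA2 replicate 3 or hi-77+/+ empty replicate 2, and up to 5.43 without others. Without GATA2 replicates 1 and 3 it was -12.9, and hi-77-/- empty minus GATA2 was -5.65. The causes were not tested. Leaving out each library gave 2.78 to 14.3 points for hi-77-/- empty minus GATA2 and 3.57 to 12.8 for hi-77-/- empty minus hi-77+/+ empty. Weak-peak alternatives on all deposited peaks, and with absence in the full lists, leave no weak peaks and were not run.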

Other observations

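The 460 regions were spread unevenly over chromosomes. Chromosome 10 held 40 of them (8.7%, against 4.93% of all regions), chromosome 13 held 32 (6.96% against 4.09%) and chromosome 5 held 18 (3.91% against 7.06%). Foxp1 introns held 2 more regions beside the leading one, with median ranks of 37347 and 39903, of which the first had no weak peak in any library and neither had a C/EBP motif. These values were picked after the data were seen and were not tested.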
